A study of Arabidopsis thaliana with 12 samples.

Results

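Transcript levels were compared between leaves of wild-type Arabidopsis thaliana that had been submerged in the dark and leaves of wild type kept in the dark in air. The comparison takes the 6 Affymetrix ATH1 arrays whose labels give wild type, out of 12 arrays in the series. They are 3 arrays labelled WT_submerged (Col-0, 12 h under water in darkness, with the water surface 10 cm above the leaves) and 3 labelled WT_dark (Col-0, 12 h of darkness without submergence). The other 6 arrays carry the same pair of treatments in ago1-27, a hypomorphic mutant of ARGONAUTE1 (3 arrays labelled ago1-27_submerged and 3 labelled ago1-27_dark). All plants were 4 weeks old per the labels, both treatments were dark, and each replicate is RNA from a pool of 4 plants, so the spread between plants cannot be seen. Values are MAS5 signals on a linear scale, and each array has the same trimmed mean of 500.

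Water slows the diffusion of gases, so a submerged leaf in darkness can neither photosynthesise nor take up oxygen freely. Plants are known to answer low oxygen with fermentation enzymes and a conserved set of low-oxygen genes, and ethylene trapped under water is known to drive elongation growth in species that escape flooding. Growth of that kind rests on enzymes that loosen and rebuild the cell wall, such as xyloglucan endotransglucosylase/hydrolases and expansins. ARGONAUTE1 is the protein that carries microRNAs to their target transcripts.

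The labels were first set against genes that should follow them. Of 24 genes of the known low-oxygen response that passed the filter on low signals, 22 had all 6 arrays labelled wild type above all 6 labelled ago1-27 (91.7%, against 13.4% of all 7935 genes tested). They were therefore high in both wild-type groups, submerged or not. CML38, a calmodulin-like gene, had signals of 4850, 4490 and 5110 on the WT_submerged arrays and 3930, 4930 and 4380 on the WT_dark arrays, against 29.7, 18.9 and 34.1 in ago1-27_submerged and 41.9, 34.3 and 36.4 in ago1-27_dark. PDC2, a pyruvate decarboxylase of ethanol fermentation, had 2230, 3300 and 2600 in WT_submerged and 3360, 2380 and 2780 in WT_dark, against 91.7, 128 and 236 in ago1-27_submerged and 140, 100 and 101 in ago1-27_dark. For both genes the wild-type groups overlapped each other and lay above every ago1-27 array.

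Other features parted the arrays by the treatment label in both genotypes. The gene AT3G55920, a cyclophilin gene, had signals of 270, 210 and 267 in WT_submerged, against 2.07, 1.96 and 2.64 in WT_dark. It had 315, 261 and 315 in ago1-27_submerged, against 1.62, 1.85 and 2.7 in ago1-27_dark. A control probe set of the array, for which the sources used here give no gene, ran the other way. Its signal was 1.74, 44.7 and 6.07 in WT_submerged, against 24500, 29800 and 29300 in WT_dark, and it was 23.4, 9.31 and 23.6 in ago1-27_submerged, against 26900, 27200 and 29100 in ago1-27_dark. Over all genes tested, 151 (1.9%) had every submerged-labelled array above every dark-labelled one and 89 (1.12%) had the reverse. Since the low-oxygen genes follow the genotype label and not the treatment label, an exchange of group labels is possible, and the contrast described here may then be one between genotypes. Whether the labels were exchanged was not tested. Every group below is named by its label, and every "rose" or "fell" means higher or lower on the arrays labelled WT_submerged.

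**Figure D1:**
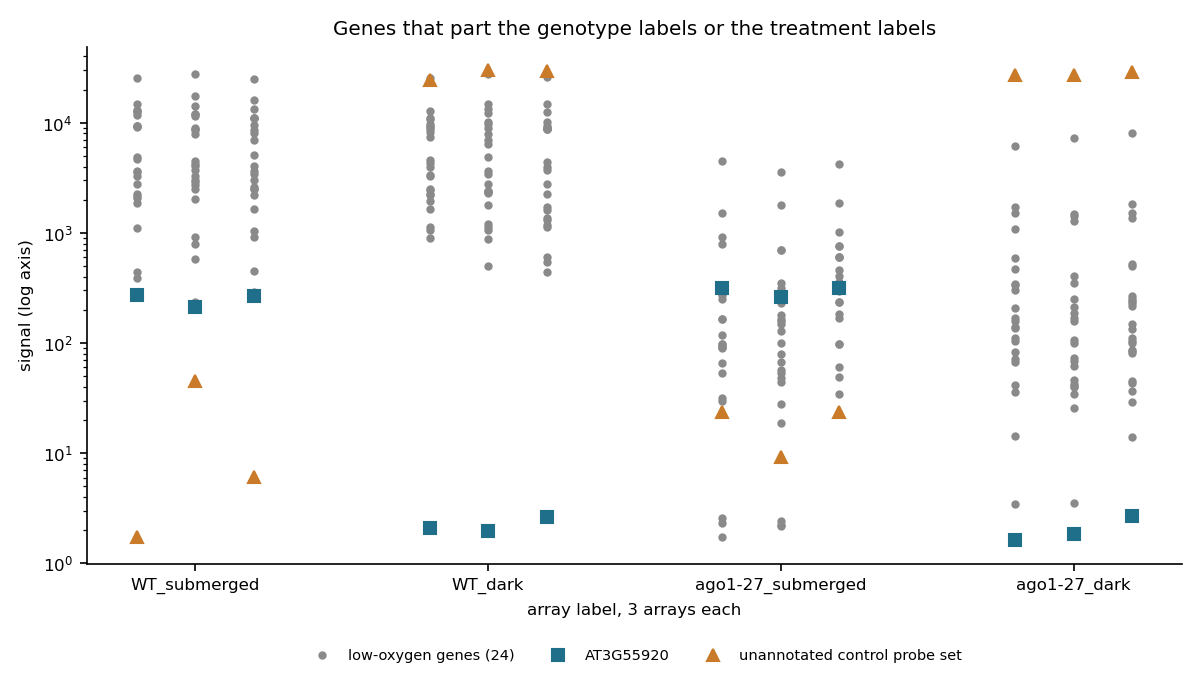
Signal on a log axis for each of the 12 arrays, 3 per label. Grey points are the 24 low-oxygen genes tested, blue squares AT3G55920 and orange triangles the control probe set without a gene: low-oxygen genes are high under both wild-type labels, while AT3G55920 (at least 210 against at most 2.7) and the control probe set part the treatment labels under either genotype.

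The 6 arrays were not equally alike. In a principal component analysis of these arrays the first component held 48.8% of the variance and placed WT_submerged at -36.7, -29.3 and -22.1 and WT_dark at -7.47, 53.8 and 41.8. WT_dark replicate 1 lay nearest to the WT_submerged arrays there, and it stood apart from all others on the second component (21.5% of the variance) at -51. Signs of RNA quality were measured on control probe sets. The actin 3' to 5' ratio was 6.68, 5.57 and 6.64 in WT_submerged and 8.5, 7.65 and 7.7 in WT_dark, without overlap (exact permutation test, two-sided, p = 0.1, the smallest that 3 against 3 arrays allow). The GAPDH and ubiquitin ratios overlapped between the groups, with exact permutation p of 0.2 and 0.3. The part of the actin ratio in the results was not tested.

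Leaf identity was plain on all 6 arrays: RCA, the activase of Rubisco, had signals of 25600, 24400 and 22300 in WT_submerged and 21700, 19400 and 22000 in WT_dark. The summed signal of 8 root markers was 454 to 482 in WT_submerged and 458 to 521 in WT_dark, and only 2 of the 8 passed the filter. The single flower marker named on the array lay under the low-signal limit (the 40th percentile of its array, 72 to 87.1 on these arrays) on all 6. The summed signal of 3 phloem and xylem markers was 2720 to 3260 in WT_submerged and 2550 to 3040 in WT_dark. The summed signal of 6 guard cell and trichome markers was 643 to 910 in WT_submerged and 509 to 582 in WT_dark, which do not overlap (exact permutation p = 0.1), while none of the 4 that passed the filter was called. The largest part of this sum came from 1 gene, AT1G22690 (366, 334 and 482 in WT_submerged, 222, 305 and 271 in WT_dark). AGL23 and TRY lay under the low-signal limit on all 6 arrays, and AT3G16350 on 5. In RNA of whole leaves, fewer cells of a type and less RNA per cell cannot be told apart.

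Of 14812 probe sets tested with limma, 1048 (7.08%) passed a Benjamini-Hochberg adjusted p under 0.05. These were 697 higher (4.71%) and 351 lower (2.37%) in WT_submerged, and 3336 (22.5%) had an unadjusted p under 0.05. Taking each named gene once, by its brightest probe set, 510 of 7935 genes were called (6.43%), with 337 rises (4.25%) and 173 falls (2.18%). A change of 2-fold or more was seen in 146 of the rises (1.84% of genes) and 80 of the falls (1.01%). The arrays of the groups did not overlap in 3795 probe sets (25.6%). The median log2 change of all genes was 0.069. The excess of rises rests on the scaling: 66.5% of the called probe sets were higher as deposited, 45.7% with array medians set equal (370 higher, 439 lower) and 52.1% after centring on the median of the probe sets kept. The median log2 change of all probe sets was 0.068 as deposited and -0.067 after median centring, and every log2 change below moves down by the same step under that scaling.

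**Figure D2:**
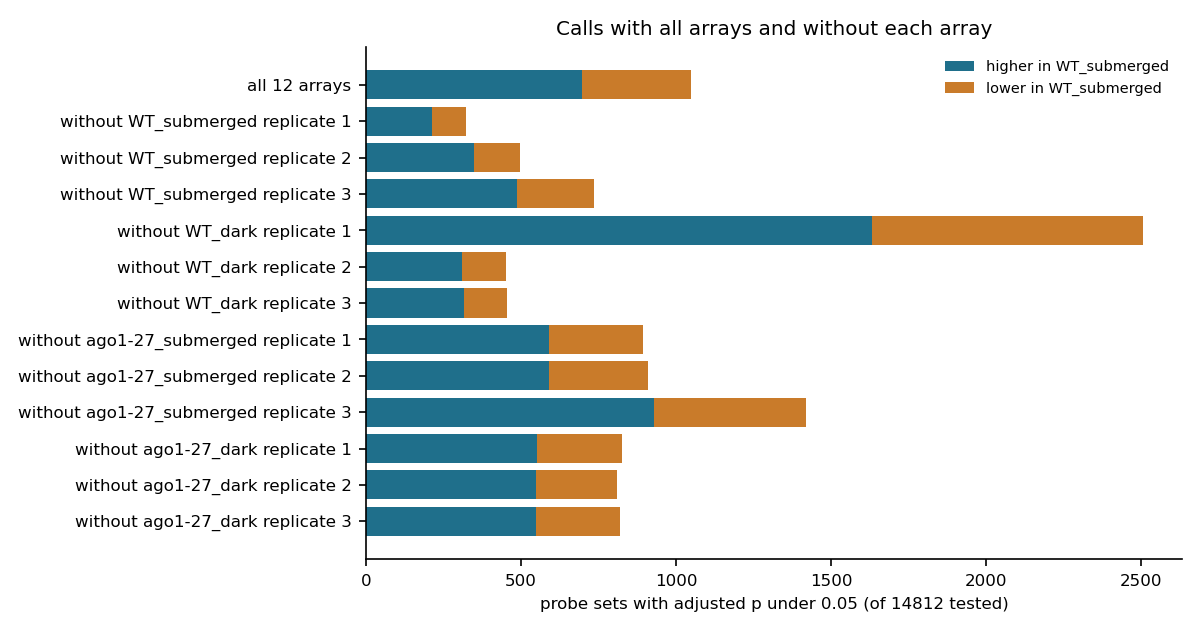
Number of probe sets called higher (blue) or lower (orange) in WT_submerged with all 12 arrays and after leaving out each array in turn. The count is 1048 with all arrays and 2506 without WT_dark replicate 1, and between 322 and 497 without WT_submerged replicate 1 or 2 or WT_dark replicate 2 or 3.

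The count of calls depended on single arrays. It was 2506 without WT_dark replicate 1, against 322 and 497 without WT_submerged replicates 1 and 2 and 452 and 454 without WT_dark replicates 2 and 3. At the level of genes, 1272 were called without WT_dark replicate 1, 840 higher (10.6%) and 432 lower (5.44%), and 496 of the 510 genes called with all arrays were among them with the same direction. Of the 119 called genes chosen for naming, 42 kept their call whichever of the 6 wild-type arrays was left out. Changes given below as "rose by" or "fell by" are on the log2 scale.

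Of the 337 genes called higher, WT_dark replicate 1 was the highest of the 3 WT_dark arrays in 218 (64.7%, against 54.8% of all genes), so it stood closest to WT_submerged there. Of the 173 called lower it was the lowest of the 3 in 91 (52.6%, against 24.8%).

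Genes that build and loosen the cell wall were called higher more often than the 4.25% of all genes, and other, shorter lists had larger shares. Of 40 tested genes for xyloglucan enzymes, expansins and other wall enzymes, 11 rose and 1 fell, with a median log2 change of 0.41 against 0.069 for all genes. In ago1-27, 3 of them rose and 0 fell, with a median of 0.29. The list's count of calls was 7 after median centring and 10 after quantile normalization, and it ranged from 4 (without WT_submerged replicate 1) to 12 without 1 of the 6 arrays.

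XTH33, a xyloglucan endotransglucosylase/hydrolase that cuts and rejoins xyloglucan chains, had signals of 544, 516 and 343 in WT_submerged, against 117, 109 and 109 in WT_dark. Its log2 change was 2.04 ± 0.25 (standard error of the fit, as for all log2 changes here; adjusted p = 0.001), and the lowest WT_submerged array was well above the highest WT_dark array. XTH19, of the same enzyme family, had 2620, 1730 and 2090 in WT_submerged, against 565, 919 and 947 in WT_dark (1.42 ± 0.24, adjusted p = 0.0051). XTH16 had 253, 202 and 221 in WT_submerged, against 74.2, 99 and 47.3 in WT_dark, a log2 change of 1.67 ± 0.38 (adjusted p = 0.021). Its WT_dark replicates 1 and 3 lay under the low-signal limit. In all 3 genes the groups were fully apart, and the log2 change of XTH33 in ago1-27 was 2.02.

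EXLA1, an expansin-like A gene, had 472, 331 and 336 in WT_submerged, against 62, 163 and 60.6 in WT_dark (2.14 ± 0.35, adjusted p = 0.0044). The group difference exceeded the scatter even though WT_dark replicate 2 stood above the other WT_dark arrays, which lay under the low-signal limit. EXLA2 had 168, 110 and 90.6 in WT_submerged and lay under the low-signal limit in WT_dark, at 77.7, 61.5 and 32.6, so that it was at least 1.54-fold higher (adjusted p = 0.044). EXPA8, an expansin, which loosens walls without cutting them, had 2620, 1490 and 2080 in WT_submerged and 1160, 662 and 1050 in WT_dark (1.11 ± 0.26, adjusted p = 0.022).

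Of 3 tested genes with pectin methylesterase symbols, ATPMEPCRB and PME61 rose and PMEPCRF was not called (-0.09, adjusted p = 0.78). ATPMEPCRB, a pectin methylesterase, which removes methyl groups from wall pectin, had 756, 735 and 442 in WT_submerged, against 301, 226 and 241 in WT_dark (1.3 ± 0.21, adjusted p = 0.0035), and PME61 of the same family rose by 1.12 ± 0.25 on the log2 scale (adjusted p = 0.019). CSLA03, of a family that makes mannans, rose by 0.91, and TBL28 and TBL37, of a family that acetylates wall polymers, by 0.82 and 0.62. CSLC04, a synthase of the xyloglucan backbone, was the member that fell: 1290, 926 and 1110 in WT_submerged, against 1770, 1580 and 1650 in WT_dark (-0.60 ± 0.17, adjusted p = 0.048). XTH33, XTH19, EXLA1 and ATPMEPCRB were called under all 25 alternative settings. The other 8 called members lost their call without at least 1 array, with a highest adjusted p between 0.092 and 0.19.

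**Figure D3:**
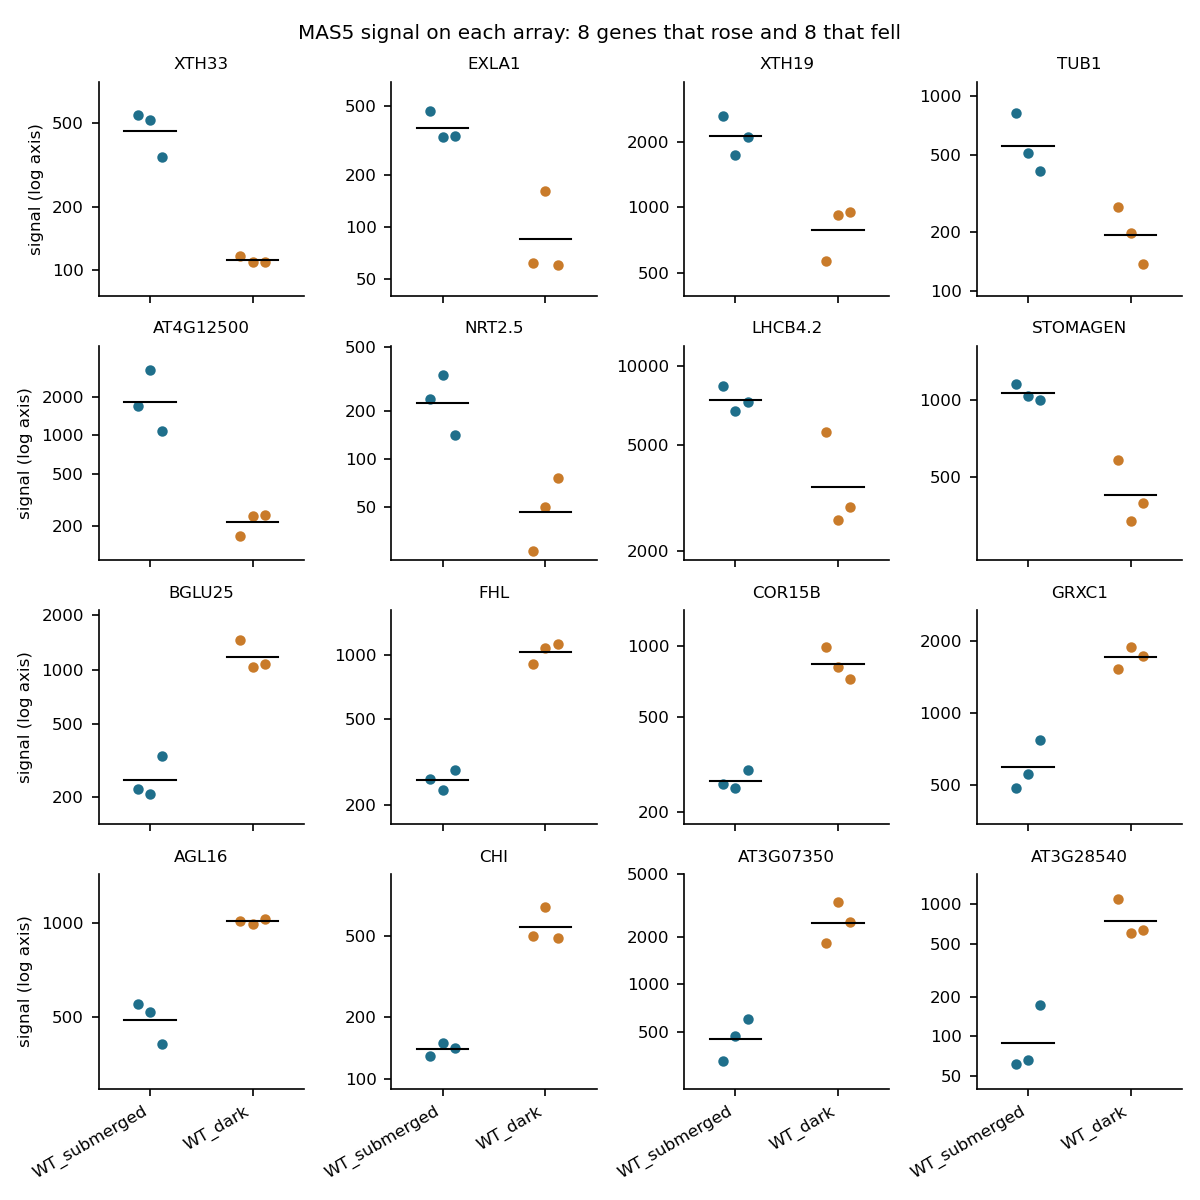
Signal on each array (log axis, points; the line is the mean of the log2 values) for 8 genes that rose and 8 that fell, WT_submerged in blue and WT_dark in orange, 3 arrays each. The groups are apart in all 16 genes, from XTH33 (343 to 544 against 109 to 117) to BGLU25 (207 to 336 against 1040 to 1450).

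A few called genes outside the list were picked after their values were seen, and no count or test stands behind them as a group. GH9C2 and GH9B7, of the endoglucanase family GH9, rose by 1.6 ± 0.44 and 0.87 ± 0.18 (adjusted p = 0.047 and 0.015). For GH9C2 the signals were 524, 393 and 405 in WT_submerged and 339, 95.7 and 91.5 in WT_dark, where replicate 1 alone came near the other group. The call of GH9C2 was lost when any of 10 arrays was left out (adjusted p up to 0.18). THE1 (THESEUS1), a receptor kinase that senses wall integrity, rose by 0.62, SKU5, a surface protein of directional growth, by 1.02, and EXO (EXORDIUM), a gene of brassinosteroid-driven leaf growth, by 0.82. EXO had 3350, 3020 and 2560 in WT_submerged and 1520, 1860 and 1650 in WT_dark.

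Of 8 tubulin and actin genes 3 rose and 0 fell, with a median of 0.48. TUB1, a beta tubulin, had 817, 511 and 414 in WT_submerged, against 271, 197 and 137 in WT_dark (1.52 ± 0.28, adjusted p = 0.0077), and its change in ago1-27 was 1.47. TUB6 and TUB5 rose by 0.61 and 0.50, with groups apart, but they were not called after median centring (TUB6, adjusted p = 0.084; TUB5, adjusted p = 0.19). The microtubule-bundling gene ATMAP65-6 rose by 0.61 ± 0.13. No member was called among 6 cell cycle genes (median 0.12), 6 auxin response genes (0.12) and 2 ethylene genes (0.07).

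Genes for small secreted proteins held some of the steepest rises. Of 7 tested genes for lipid transfer and hybrid proline-rich proteins, 4 rose and 0 fell, with a median of 1.3, while in ago1-27 no member was called and the median was -0.05. AT4G12500, a hybrid proline-rich lipid transfer protein gene, had 1690, 3200 and 1090 in WT_submerged, against 167, 238 and 244 in WT_dark (8.48-fold, 3.08 ± 0.40, adjusted p = 0.0012). AT4G12490, which has 1 RefSeq gene between it and AT4G12500, had 2440, 4270 and 1620 in WT_submerged, against 486, 569 and 483 in WT_dark (5.01-fold, adjusted p = 0.0051). In both genes replicate 2 was the highest of the WT_submerged arrays and replicate 3 the lowest, and related genes of this family may share signal on the array.

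AT2G10940 had 13900, 10400 and 11500 in WT_submerged and 5020, 4860 and 4520 in WT_dark (1.3 ± 0.15, adjusted p = 0.00066), among the brightest genes that rose. AT1G62510 had 285, 294 and 108 in WT_submerged and lay under the low-signal limit on every WT_dark array, at 16, 40.4 and 2.36, so it was at least 2.7-fold higher. The list had 3 to 4 calls without 1 of the 6 arrays. Of 5 lectin and jacalin genes only JAL33 was called, at least 1.71-fold higher, with 119, 141 and 137 in WT_submerged and 23.2, 33.4 and 13.1 in WT_dark. JAL22 (1.33), JAL34 (1.00) and JAL23 (0.88) did not pass the test, and 3 of the list were called without WT_dark replicate 1.

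Nuclear photosynthesis genes rose in small number, while the genes of the plastid genome leaned lower without a call. Of 7 nuclear photosystem and antenna genes 3 rose and 0 fell (median 0.27). LHCB4.2, an antenna protein of photosystem II, had 8400, 6720 and 7320 in WT_submerged and 5600, 2610 and 2920 in WT_dark (1.09 ± 0.22, adjusted p = 0.013), with WT_dark replicate 1 next to the WT_submerged arrays. PSAN of photosystem I rose by 0.72 and PSBY of photosystem II by 0.55. The paralogue LHCB4.1 had 10800, 11200 and 11000 in WT_submerged and 12300, 11300 and 12500 in WT_dark, where the groups do not overlap but no call was made (log2 change -0.13, adjusted p = 0.55). The count of calls in this list was 1 after median centring, 0 without WT_submerged replicate 1 and 4 without WT_dark replicate 1.

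Related chloroplast genes included NdhL and CRR42, which serve the plastid NAD(P)H dehydrogenase complex and rose by 0.75 and 1.14, ATAB2, needed for translation of photosystem transcripts (0.60), and CaS, a calcium sensor of the thylakoid (1.02). CaS had 5470, 3500 and 4420 in WT_submerged and 3190, 1350 and 2360 in WT_dark. TAAC, an ATP/ADP carrier of the thylakoid, and GSA1, an enzyme of chlorophyll synthesis, had log2 changes of -1.34 and -0.61. CaS (adjusted p = 0.047) lost its call when any of 10 arrays was left out, with adjusted p up to 0.19. NdhL (adjusted p = 0.048) lost it for any of 8 arrays, with adjusted p up to 0.18. CRR42, ATAB2, TAAC and GSA1 also lost their calls without some arrays. Of 66 genes carried by the plastid DNA none was called by limma with all arrays, and 3 at most without 1 of the 6 arrays. Their median log2 change was -0.25, 63 of 66 lay below 0, against 41.7% of all genes, and the groups did not overlap in 24, against 25.6% of all probe sets. In ago1-27 their median was -0.38 and 64 lay below 0, against 44.0% of all genes. The median of nuclear genes for the Calvin cycle and chlorophyll synthesis was 0.23, and 0 of 8 were called.

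STOMAGEN, a peptide from the leaf mesophyll that promotes stomata, had 1150, 1040 and 998 in WT_submerged, against 583, 334 and 394 in WT_dark (1.32 ± 0.24, adjusted p = 0.0068). It was called under all 25 alternative settings. The guard cell and trichome marker sum, given above, was also higher in WT_submerged, and its part in this result was not tested. YAB5, a YABBY transcription factor of leaf polarity, had 321, 298 and 298 in WT_submerged and 137, 169 and 157 in WT_dark (0.99 ± 0.17, adjusted p = 0.0061).

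Among transporters, NRT2.5, a high-affinity nitrate transporter known from nitrogen-starved plants, had 237, 336 and 141 in WT_submerged, against 26.3, 49.5 and 75.7 in WT_dark (4.85-fold, 2.28 ± 0.43, adjusted p = 0.0087). WT_dark replicates 1 and 2 lay under the low-signal limit and replicate 3 lay at it, so the fold rests on signals near background. Its ago1-27 signals lay under the limit too, so NRT2.5 passed the filter mainly through its WT_submerged arrays. SWEET1, a glucose transporter, had 375, 360 and 344 in WT_submerged and 237, 188 and 187 in WT_dark (0.82 ± 0.19, adjusted p = 0.02). The 9 tested genes of the list of sugar and amino acid transporters were all SWEET or TMT sugar transporters. Of these, 8 lay above 0, where 41.7% of all genes lay below 0, and SWEET1 alone was called. GTR1, which moves glucosinolates into cells, had 396, 383 and 466 in WT_submerged and 249, 233 and 226 in WT_dark (0.81 ± 0.14, adjusted p = 0.0055). The other 10 tested genes of glucosinolates and sulfate assimilation were not called. One of them, PYK10, a beta-glucosidase known from roots and endoplasmic reticulum bodies, had a log2 change of 3.11 ± 1.01 (adjusted p = 0.085).

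Enzymes of nitrogen and secondary metabolism changed singly. ALN, the allantoinase that opens the path from purine breakdown to recovered nitrogen, had 688, 703 and 577 in WT_submerged, against 260, 252 and 259 in WT_dark (1.35 ± 0.16, adjusted p = 0.0008). Its change in ago1-27 was 1.44. UGT72E1, which glucosylates lignin precursors, rose by 1.44 ± 0.24 and UGT84A3, which glucosylates hydroxycinnamates, fell by 0.73 ± 0.15, the only calls among 29 UDP-sugar glycosyltransferases. HCT, of the lignin pathway, rose by 0.60, and ALDH3F1, the only call of 8 aldehyde dehydrogenases, by 0.72. Among 48 proteases and inhibitors 3 rose and 0 fell, a count near the 4.25% of all genes called higher. They were serine carboxypeptidase-like: SCPL27 (1.36), scpl50 (1.15) and scpl29 (0.71).

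Most of the largest rises belong to genes without a symbol. AT1G12080 had 1710, 1770 and 1150 in WT_submerged, against 486, 171 and 126 in WT_dark (6.93-fold, adjusted p = 0.0031), and AT4G25260 had 347, 351 and 236 in WT_submerged, against 107, 35 and 88.9 in WT_dark (4.42-fold). AT3G54400 was 6.01-fold higher and AT5G48430 5.15-fold higher. AT4G38780 (at least 2.28-fold), AT3G46490 (at least 1.7-fold) and AT3G05180 (at least 1.39-fold) lay under the low-signal limit in WT_dark, and AT3G55920, described with the labels, was at least 3.21-fold higher. AT4G38780 lay under the limit on every ago1-27 array too. It passed the filter only through its WT_submerged arrays, the group where it was high. AT1G12080, AT4G25260, AT4G38780, AT3G46490 and AT3G55920 kept their calls under all 25 alternative settings.

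The called genes RAPTOR2 and NRPB7 were named singly, with no list behind them. RAPTOR2, a partner of the TOR kinase, had 178, 180 and 111 in WT_submerged and lay under the low-signal limit in WT_dark at 79, 46.8 and 22.6, and so was at least 1.97-fold higher. NRPB7, a subunit of RNA polymerase II, had 380, 402 and 439 in WT_submerged and 250, 186 and 182 in WT_dark (0.99 ± 0.17, adjusted p = 0.005). AT5G66930, of the autophagy and proteasome list, had 1610, 1420 and 1470 in WT_submerged and 725, 766 and 664 in WT_dark (1.06 ± 0.13, adjusted p = 0.00078). APG8H, an ATG8 protein of autophagosomes, was the list's only fall, with 3000, 3250 and 2980 in WT_submerged and 3690, 4450 and 4500 in WT_dark (-0.45 ± 0.12, adjusted p = 0.047). The call of APG8H was lost when any of 10 arrays was left out (adjusted p up to 0.16). The other 23 of 25 list members were not called, and their list median was 0.0.

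Transcription factors moved in both directions. BZIP61 had 612, 477 and 383 in WT_submerged and 217, 99.9 and 150 in WT_dark (1.70 ± 0.29, adjusted p = 0.0057), and bZIP44 rose by 1.3 ± 0.29. They were the calls among 17 bZIP genes. Of 15 zinc finger, homeobox, MADS and related factors 2 rose (SNZ and TCP15) and 2 fell (AGL42 and AGL16). SNZ lay under the low-signal limit on all 6 wild-type arrays. AGL42, a MADS-box gene, was at least 2.59-fold lower, with 66.2, 70.7 and 66 in WT_submerged, all under the low-signal limit, and 266, 198 and 206 in WT_dark. No call was made in 6 WRKY and 7 bHLH genes.

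MicroRNA targets are of interest because the series set wild type against an ARGONAUTE1 mutant. Of 14 tested targets 1 rose, 2 fell and 11 were not called, with a median of 0.08. SNZ, an AP2-type repressor of flowering targeted by miR172, had 37.7, 39.1 and 65.7 in WT_submerged and 5.77, 10.6 and 8.96 in WT_dark, but all 6 values lay under the low-signal limit, so no fold is given (adjusted p = 0.0092). It passed the filter through its ago1-27_submerged arrays, and its call was lost in an alternative setting (adjusted p up to 0.31). AGL16, targeted by miR824, had 552, 519 and 411 in WT_submerged, against 1020, 997 and 1030 in WT_dark (-1.05 ± 0.16, adjusted p = 0.003). The WT_dark arrays were within a few percent of each other, and AGL16 fell in ago1-27 too (-1.69).

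CCS, the copper chaperone of superoxide dismutase, is a target of miR398. It had 1340, 1710 and 582 in WT_submerged and 2430, 2810 and 2820 in WT_dark (-1.29 ± 0.29, adjusted p = 0.019), with WT_submerged replicate 3 far below its partners. ARPN and AT3G15640, also in the list of microRNA targets, had log2 changes of -0.66 ± 0.43 and -0.46 ± 0.20 and were not called. PHV, a homeodomain gene targeted by miR165/166, had 321, 275 and 328 in WT_submerged and 266, 212 and 193 in WT_dark without a call (0.47 ± 0.22, adjusted p = 0.23). None of 6 genes of the small RNA machinery was called. SE (SERRATE), a partner in microRNA processing, had a log2 change of -0.25 ± 0.16.

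The genes that fell furthest mostly have no symbol in the annotation. AT3G48650 had 3.8, 5.94 and 159 in WT_submerged, against 1450, 6530 and 4670 in WT_dark (adjusted p = 0.0029). WT_submerged replicate 3 stood above the other 2 WT_submerged arrays, which lay under the low-signal limit, by more than an order of magnitude. The groups were fully apart, but the rule for naming the largest changes required this. QQS, an orphan gene known to shift carbon between starch and protein, had 7.09, 13.6 and 170 in WT_submerged and 3360, 584 and 840 in WT_dark (-5.54 ± 1.44, adjusted p = 0.037). Its log2 change in ago1-27 was -5.77, where its arrays ranged from 2.66 to 147 in ago1-27_submerged and from 375 to 2540 in ago1-27_dark. Under each genotype label 2 of the 3 submerged arrays of QQS lay under the low-signal limit, so the size of both falls rests on background signals. Its call in wild type was lost without some arrays (adjusted p up to 0.16).

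AT3G07350 had 324, 467 and 598 in WT_submerged and 1820, 3340 and 2470 in WT_dark (5.5-fold lower, adjusted p = 0.00059), and AT3G28540 had 62.1, 65.7 and 174 in WT_submerged and 1100, 608 and 637 in WT_dark (8.42-fold lower). Both kept their calls under all 25 alternative settings, and both fell in ago1-27 (-2.33 and -2.09). For AT3G28540, 2 of the WT_submerged arrays lay under the low-signal limit, so its fold rests partly on background signals. AT1G73490 was 7.56-fold lower and AT4G15680 5.19-fold lower, while AT3G50010 (at least 2.54-fold), AT1G12400 (at least 2.97-fold) and AT5G64870 (at least 3.28-fold) dropped under the low-signal limit in WT_submerged. AT5G64870 lay under the limit on all 6 ago1-27 arrays too. It passed the filter only through its WT_dark arrays, the group where it was high. Its call was lost when any of 4 arrays was left out (adjusted p up to 0.13).

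Among genes with symbols, BGLU25, CHI and COR15B fell. BGLU25, a beta-glucosidase, had 221, 207 and 336 in WT_submerged, against 1450, 1040 and 1080 in WT_dark (4.73-fold lower, -2.24 ± 0.24, adjusted p = 0.00054), and was the only call among 8 beta-glucosidases. CHI (AT2G43570), a chitinase, had 130, 150 and 141 in WT_submerged, against 500, 688 and 490 in WT_dark (3.94-fold lower, adjusted p = 0.00066). COR15B, a cold-induced chloroplast protein that protects membranes, had 262, 253 and 301 in WT_submerged and 989, 815 and 726 in WT_dark (-1.62 ± 0.19, adjusted p = 0.00066), the only call of 11 genes of abscisic acid, cold and drought. All 3 kept their calls under all 25 alternative settings.

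GRXC1, a glutaredoxin that reduces protein disulfides with glutathione, had 486, 553 and 769 in WT_submerged and 1520, 1890 and 1730 in WT_dark (-1.53 ± 0.23, adjusted p = 0.003). With CCS it made up the 2 falls among 26 oxidative stress genes, none of which rose. MSRB5, a methionine sulfoxide reductase, fell by 0.90 and was called with all arrays but not in every alternative setting. CML41, a calmodulin-like gene, had 206, 195 and 142 in WT_submerged and 305, 569 and 449 in WT_dark (-1.26 ± 0.27, adjusted p = 0.018), and YLS5, a gene known from yellowing leaves, had 2730, 4030 and 3150 in WT_submerged and 5390, 12200 and 9500 in WT_dark (-1.39 ± 0.26). CYP71B24 and CYP71B22, with 2 RefSeq genes between them, had log2 changes of -1.18 and -0.91 and were the 2 calls among 12 cytochrome P450 genes. RING1, a ubiquitin ligase, and SAL2, a phosphatase of the SAL family, had log2 changes of -1.19 and -1.8 (adjusted p = 0.015 and 0.037).

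Further genes with symbols fell, most of them by less than 2-fold. IDH-V, a subunit of mitochondrial isocitrate dehydrogenase, had 3350, 3340 and 3260 in WT_submerged and 4170, 4840 and 4790 in WT_dark (-0.47 ± 0.11, adjusted p = 0.022), and FRO1 (FROSTBITE1), of respiratory complex I, had 2090, 2230 and 2250 in WT_submerged and 2950, 3270 and 3280 in WT_dark (-0.53 ± 0.12, adjusted p = 0.02). THIC, of thiamine synthesis, fell by 0.79 and LPR2, of the root response to low phosphate, by 0.82. KEU, needed for the cell plate in cytokinesis, fell by 0.72, and GER2, an enzyme of GDP-fucose synthesis, by 1.13. HON4, the only call among 6 histone genes, fell by 0.63. Of these genes GER2 kept its call under all 25 alternative settings, and the others lost it without at least 1 array.

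Few low-oxygen genes were called between the groups: of 24 tested, 1 rose, 1 fell and 22 were not called, with a median of 0.1. The groups did not overlap in 7 of the 24, against 25.6% of all probe sets. The fit pools the spread of all 12 arrays, and several of these genes lay near background in ago1-27, which widens their standard errors. AT4G24110 had 3620, 4180 and 3450 in WT_submerged and 2210, 2350 and 2230 in WT_dark, without a call (0.72 ± 1.13, adjusted p = 0.76). For such genes the lack of a call does not show a lack of change. FHL, which carries phytochrome A into the nucleus, was the fall, with 263, 234 and 291 in WT_submerged and 902, 1070 and 1120 in WT_dark (-1.97 ± 0.19, adjusted p = 0.0003), and it was called under all 25 alternative settings. AT5G42200 was the rise, with 3260, 3720 and 3030 in WT_submerged and 2480, 1120 and 1350 in WT_dark (1.10 ± 0.24, adjusted p = 0.019). Its call was lost when any of 4 arrays was left out (adjusted p up to 0.075). AT3G10020 had 392, 573 and 1030 in WT_submerged and 2260, 1780 and 602 in WT_dark, with overlap and no call (-1.13 ± 0.42, adjusted p = 0.14). It and MCCA, an enzyme of leucine breakdown, were the 2 of 24 that did not lie higher on all wild-type arrays than on all ago1-27 arrays.

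Of 6 tested glycolysis and fermentation genes only the enolase ENOC rose, with 347, 444 and 382 in WT_submerged and 246, 256 and 217 in WT_dark (0.70 ± 0.16, adjusted p = 0.02). The others were AT4G17260, PPDK, PDC2, TPI and GAPC2. Only genes that the annotation names could enter the list, so it covers these pathways in part and says nothing of their other enzymes. None of 10 carbon starvation genes (median -0.07), 10 jasmonate genes (-0.05), 3 genes of the salicylate and pathogen list (-0.67), 3 clock genes (-0.02) and 7 glutathione transferases (0.10) was called by limma. In each of these lists the calls without 1 of the 6 arrays numbered between 0 and 2. The salicylate and pathogen list held only SAG29, SAG101 and FMO (AT1G12200). SAG29 and SAG101 were also in the carbon starvation list, so no conclusion on salicylate defence is drawn. Hop2, a co-chaperone that links HSP70 and HSP90, was the only call of 12 heat shock and folding genes, with 975, 1090 and 1080 in WT_submerged and 1180, 2090 and 1970 in WT_dark (-0.69 ± 0.19, adjusted p = 0.049). It was not called after quantile normalization (adjusted p = 0.054) or median centring (adjusted p = 0.051).

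**Figure D4:**
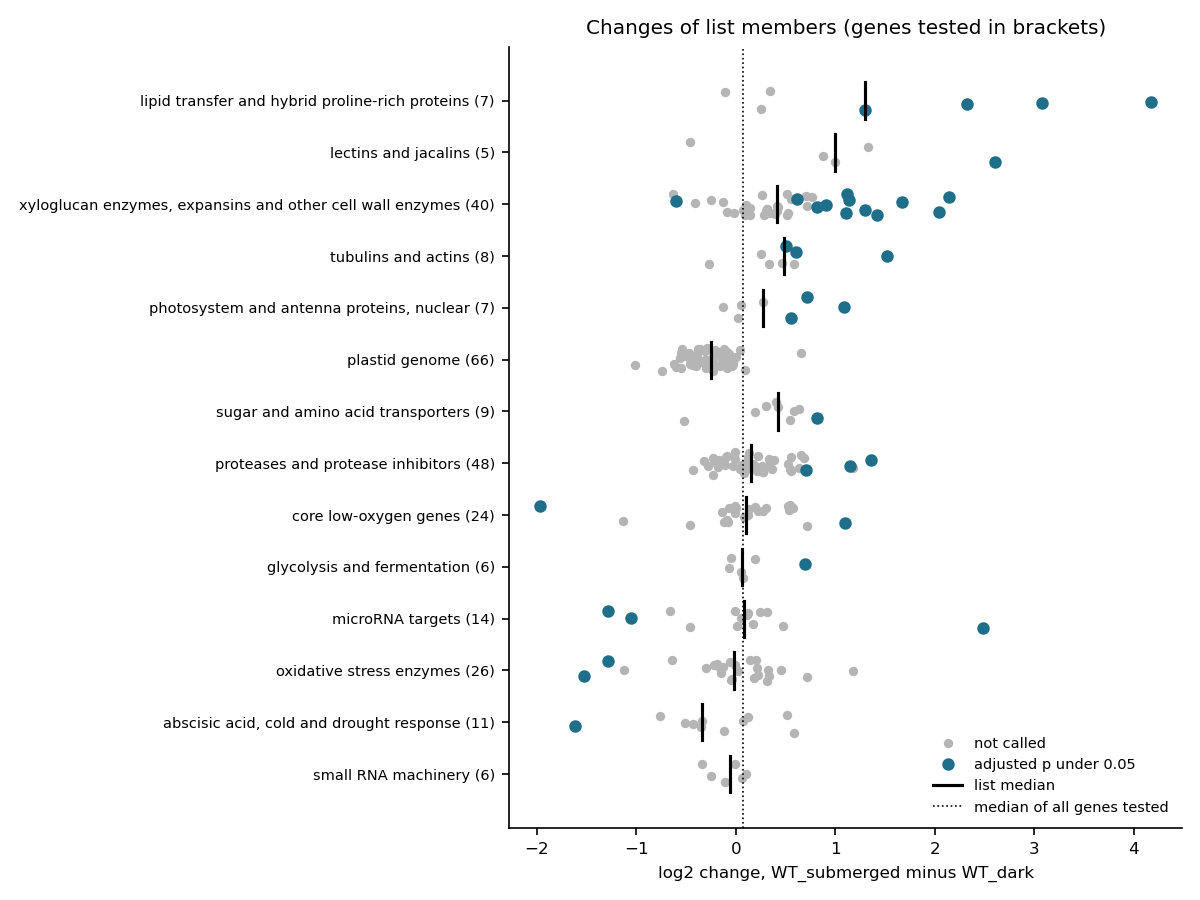
Log2 change (WT_submerged minus WT_dark) of each tested member of 14 lists; blue points passed an adjusted p under 0.05, black bars are list medians and the dotted line is the median of all genes tested (0.069). Cell wall genes reach 2.14, and the 66 plastid genes gather around -0.25 with no call.

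The falls were also counted along the chromosomes, as a description with no test. The 7854 tested genes with a nuclear chromosome in RefSeq were cut, in gene order, into 80 blocks of up to 100 genes, a division chosen after the data had been seen. Of the 80 genes called at least 2-fold lower (1.02%), by fitted change, 42 blocks held none. The 5 blocks with 4 or more falls held 27 of them; these blocks were picked by that count, so their excess is fixed by the choice. Chromosome 1 had 31 such falls among 2073 genes (1.5%) and chromosome 2 had 5 among 1152 (0.434%). The 146 genes called at least 2-fold higher (1.86%) reached 6 in a block, and 17 blocks held none.

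The blocks with the most falls held 7 each. On chromosome 1 between AT1G10550 and AT1G13270 they were AT1G10585, AT1G11280, AT1G12010, AT1G12160, AT1G12320, AT1G12400 and CCS. Of these, AT1G12010, AT1G12160 and AT1G12400 lay under the low-signal limit on all 3 WT_submerged arrays, and AT1G12320 on all 6 wild-type arrays. On chromosome 3 between AT3G27320 and AT3G44330 they were AT3G27770, AT3G28140, AT3G28200, AT3G28540, AT3G29120, QQS and AT3G32940, of which AT3G28140 and AT3G29120 lay under the limit on all 3 WT_submerged arrays. A block on chromosome 4 held AT4G15660, AT4G15680 and AT4G15700, which are separated by 1 RefSeq gene each. AT4G15680 and AT4G15700 had log2 changes of -2.38 and -1.09, and AT4G15660 lay under the limit on all 3 WT_submerged arrays. A block near the end of chromosome 5 held GRXC1, VPS20.1, AT5G63990, SAL2 and AT5G64870.

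The same 5 blocks held 22 of the 100 genes called at least 2-fold lower in ago1-27 (1.27% of genes). The blocks hold 6.37% of the tested genes. This count is not independent of the choice of blocks. Genes such as AT1G12010, CCS, AT3G28540, QQS and GRXC1 fell under both genotype labels, and their falls in wild type helped to pick the blocks. No conclusion on gene position is drawn from it. Without WT_dark replicate 1, wild type had 176 such falls (2.24%), of which 29 (16.5%) lay in the 5 blocks. The arrays left in this count had also served to pick the blocks.

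**Figure D5:**
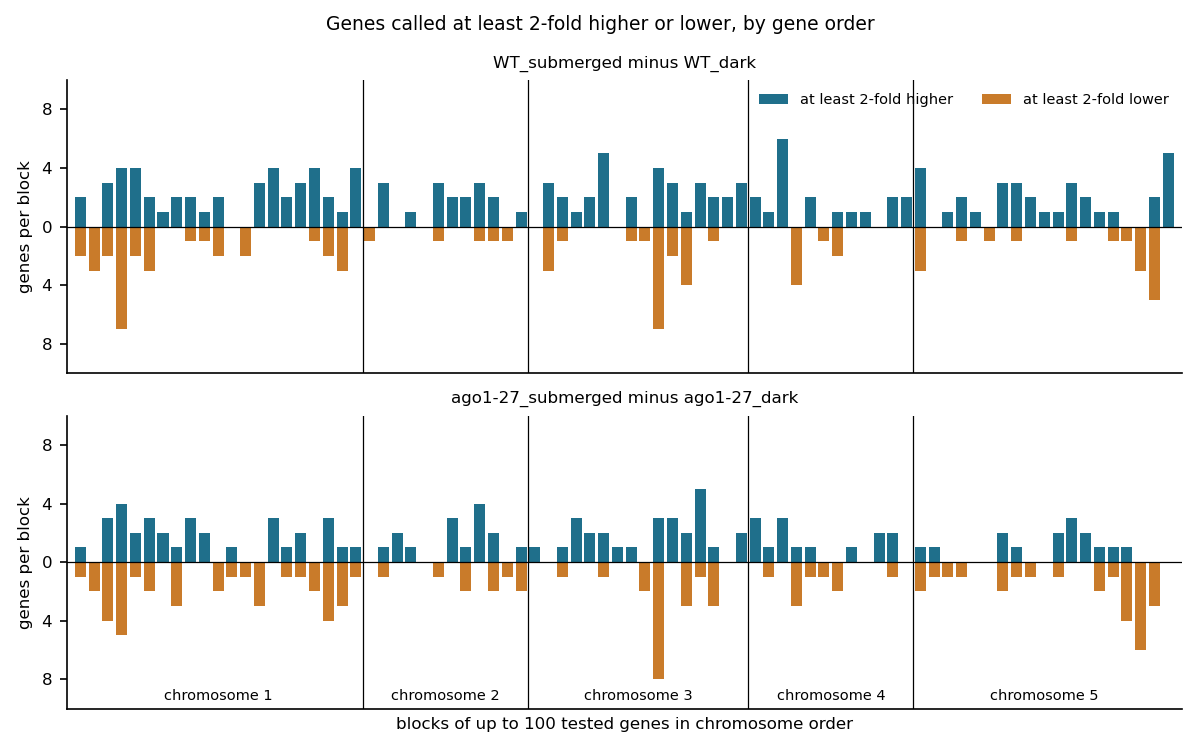
Genes called at least 2-fold lower or higher in WT_submerged, counted in 80 blocks of up to 100 tested genes along the 5 chromosomes. Falls reach 7 in a block on chromosomes 1 and 3, and 42 blocks hold none.

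The same treatment labels in ago1-27 gave 604 called genes (7.61%). Of the 510 genes called in wild type, 150 were called in the same direction in ago1-27 and 4 in the opposite direction. The difference between the genotype labels was itself tested in the same limma fit: 22 of 7935 genes (0.277%) passed, among them 17 of the 510. The others called in only 1 genotype are not shown to differ between them.

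Among the named genes, AT4G12500 showed a difference of 3.86 ± 0.56 on the log2 scale between its change in wild type and that in ago1-27 (adjusted p = 0.016), where its signals were 149, 62.9 and 82.2 in ago1-27_submerged, 2 of them under the low-signal limit, and 121, 231 and 139 in ago1-27_dark. BGLU25 had 234, 210 and 350 in ago1-27_submerged and 268, 254 and 199 in ago1-27_dark, so that only its WT_dark arrays were high (difference -2.36 ± 0.33, adjusted p = 0.015). FHL had 92.4, 79.1 and 97.8 in ago1-27_submerged and 66.8, 106 and 81 in ago1-27_dark, of which 4 lay under the low-signal limit of their array, so a fall there could hardly be seen (difference -2.08 ± 0.27, adjusted p = 0.015). Hop2 moved in opposite directions: it fell in wild type and rose in ago1-27, with 695, 728 and 892 in ago1-27_submerged and 354, 324 and 346 in ago1-27_dark (difference -1.86 ± 0.27, adjusted p = 0.016).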

How the data were processed

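RNA from 12 leaf samples was measured on Affymetrix ATH1 arrays. The authors deposited MAS5 signal intensity on a linear scale, per the labels and the submitters' processing notes; each array has a 2% trimmed mean of 500, no MAS5 version is given, and depth has no meaning for arrays, whose number limits the precision. Of 22810 probe sets, 13513 name 1 gene, 503 several and 8794 none in the platform annotation, and 13436 matched RefSeq. After log2, probe sets that exceeded the 40th percentile of the array on 3 or more arrays were fitted with limma 3.58.1 in R 4.3.3: 4 group means, empirical Bayes with an intensity trend, 8 residual degrees of freedom, Benjamini-Hochberg adjustment over 14812 probe sets, threshold 0.05. A gene is represented by its brightest probe set. A group under the 40th percentile on all its arrays gives a bound on the fold, taken against that limit. In simulated data for this contrast, 65 of 100 probe sets changed 2-fold and 92 of 100 changed 4-fold were recovered, with 5 false calls. The simulated noise was independent and equally wide on every array, unlike that of the real arrays, so these rates may not hold for them.

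Replicate numbers come from the titles; residuals of same-numbered wild-type arrays correlated at 0.11, 0.0716 and -0.0573, so they were not taken as pairs. Labels give pooled plants for each replicate but not separate experiments, so p-values measure the spread between these samples. The comparison and the gene lists were chosen with earlier results of these data known. The named genes are the largest changes, the called members of each list and the low-oxygen, microRNA target, copper and small RNA genes tested; corrections to the lists and the naming of every called gene with a symbol were added after the values had been seen.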

Additional observations from a re-analysis of the deposited data

Results flagged for a closer look

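For 7 named genes the change under the submergence label differed between the genotype labels by limma's test of the difference, given here as the log2 change in wild type minus that in ago1-27. AT4G12500 and AT4G12490 had differences of 3.86 and 3.03 (adjusted p = 0.016 and 0.046). For AT4G12490 the ago1-27 signals were 476, 288 and 266 in ago1-27_submerged and 405, 1040 and 379 in ago1-27_dark. AT5G66930 had a difference of 1.13 (adjusted p = 0.019), with 392, 341 and 358 in ago1-27_submerged and 402, 403 and 339 in ago1-27_dark. BGLU25 and FHL had differences of -2.36 and -2.08 (adjusted p = 0.015 each), where 4 of the 6 ago1-27 signals of FHL lay under the low-signal limit of their array. The chitinase CHI had a difference of -1.73 (adjusted p = 0.046), with 374, 613 and 359 in ago1-27_submerged and 453, 474 and 649 in ago1-27_dark. Hop2 had a difference of -1.86 (adjusted p = 0.016), with a fall in wild type and a rise in ago1-27. The part of a possible exchange of labels in these differences was not tested.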

How the results depend on the processing

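With all arrays 1048 probe sets were called, 697 higher and 351 lower. Leaving out 1 array at a time gave 322 to 2506 calls, 213 to 1632 higher and 109 to 874 lower. Array weights gave 4419 calls (2873 higher, 1546 lower), with a weight of 0.2563 for WT_dark replicate 1. Leaving out that array and ago1-27_submerged replicate 3 together gave 3872 (2561 higher, 1311 lower), and the 6 wild-type arrays alone gave 431 (263 higher, 168 lower). Median centring gave 809, of which 370 were higher. Centring on the probe sets kept, chosen after the data were seen, gave 987 (514 higher, 473 lower). A replicate block within each genotype label gave 1028 calls. The cause of these shifts was not tested. Of 119 named genes called, 37 were called under all 25 alternative settings, 42 without any one wild-type array, and none changed sign in any setting run. Promoter motifs were not examined here.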
